A study of Mus musculus with 18 samples.

Results

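The 10 Klf genes described here, Klf3, Klf4, Klf5, Klf6, Klf7, Klf9, Klf10, Klf12, Klf13 and Klf16, encode Krüppel-like factors, and were taken by name from the 47643 gene identifiers of the files as transcription factors that bear on axon growth. Their RNA was followed after axotomy in cultured embryonic dorsal root ganglion (eDRG) neurons. Ganglia of CD-1 mouse embryos (e13.5) were grown as spots with the mitotic inhibitor 5-fluorodeoxyuridine, and all groups share this treatment. Axons were cut with a blade, and RNA was taken 1, 3, 8, 16 and 24 hours later, from 3 cultures at each time (hours post injury, HPI), and from 3 uninjured control cultures. The labels put collection at 7 days in vitro for every group, whereas the study's text puts the cut itself at that day, so the injured cultures may have been up to 24 hours older than control, and time since injury and culture age cannot be told apart. These are embryonic neurons cut in a dish, so the groups hold neither adult ganglia nor the other cells of a nerve.

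Krüppel-like factors bind GC boxes and CACCC boxes in DNA through a zinc-finger domain that is much alike in all members, while the rest of each protein recruits different cofactors. In neurons they are known as a family whose members pull axon growth in opposite directions. Klf6 and Klf7 promote axon growth, whereas Klf4 and Klf9 restrain it in neurons of the central nervous system. Klf3 and Klf12 are repressors that recruit CtBP, Klf9, Klf10, Klf13 and Klf16 recruit the Sin3 repressor complex, and Klf5 is mostly known as an activator in dividing epithelia.

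The 18 libraries held 9478891 to 23082327 counts on genes. RNA was depleted of rRNA before sequencing. A list of 10 genes, 9 of them in the files, that take up reads of residual rRNA or encode other structural RNAs, such as 7SK (Rn7sk, 3406 CPM in control), held 0.971 to 1.96% of counts in the groups other than 16 HPI and 4.92% in 16 HPI replicate 1. All 8 markers of sensory neurons were found, at a summed 8068 to 10189 CPM (counts scaled to a common library total). Their sum was 9385 to 9777 CPM in control. It was lower, without overlap, at 16 HPI (8068 to 9178 CPM) and at 24 HPI (8413 to 8842 CPM). The sums at 1, 3 and 8 HPI overlapped with control. Markers of other cells were low. The 8 markers of satellite glia and Schwann cells summed to 63.3 to 136 CPM, most of it S100b, and the 6 fibroblast markers summed to 1.21 to 19.5 CPM. The 7 endothelial markers summed to 17.9 to 27.2 CPM, most of it Egfl7, with at most 5 counts of Kdr. The 6 myeloid markers summed to 3.56 to 4.99 CPM in control and 5.93 to 7.17 CPM at 24 HPI. In such bulk RNA, fewer cells of a type and less RNA per cell cannot be told apart.

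The promoters of Klf6 and Klf9, which were both higher at 8 HPI, are shown because these genes stand on the opposite sides of axon growth and share none of the searched motifs. The sequences are RefSeq's, on GRCm38.p6, 5′ to 3′ on the strand of the gene, from 250 bases before to 50 bases after its start. Klf6 lies on the plus strand at chr13:5861239-5861538 and Klf9 on the plus strand at chr19:23140976-23141275. Capitals mark the motifs found, which are a GC box (GGGCGG) and an E-box (CACGTG) in Klf6, and a CACCC box and a CRE half-site (TGACG) in Klf9.
Klf6: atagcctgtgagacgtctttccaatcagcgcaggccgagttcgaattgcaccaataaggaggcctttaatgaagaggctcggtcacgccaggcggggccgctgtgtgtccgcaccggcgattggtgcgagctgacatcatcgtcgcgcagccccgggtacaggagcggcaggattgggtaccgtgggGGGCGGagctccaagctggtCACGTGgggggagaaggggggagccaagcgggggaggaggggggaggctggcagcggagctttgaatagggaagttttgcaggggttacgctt
Klf9: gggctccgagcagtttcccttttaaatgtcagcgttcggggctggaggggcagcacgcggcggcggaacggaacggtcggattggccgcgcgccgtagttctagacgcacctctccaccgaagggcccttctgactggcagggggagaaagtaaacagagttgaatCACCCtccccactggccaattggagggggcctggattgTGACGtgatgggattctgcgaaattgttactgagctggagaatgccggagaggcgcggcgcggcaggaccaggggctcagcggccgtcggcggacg
The motifs were searched on both strands without regard to overlaps between them, and positions are those of the leftmost base on the strand of the gene, counted from its start. The GC box of Klf6 begins at -63 and its E-box at -43, and the CACCC box of Klf9 begins at -84 and its CRE half-site at -46. RefSeq promoters were matched for 7 of the 10 genes (Klf3, Klf4, Klf6, Klf7, Klf9, Klf12 and Klf13), not for Klf5, Klf10 and Klf16. The GC box, a site that Krüppel-like factors themselves bind, was in 5 of the 7, and in 35.7% of all 32851 promoters of this length. The CACCC box was in 5 of 7 against 57.5% of all, and the CRE half-site, the core of the element that CREB and ATF factors bind, in 5 of 7 against 20.8%. The E-box was in 2 of 7 against 7.15%. The AP-1 site (TGAGTCA), the C/EBP-ATF site (TGATGNAA) and the CArG box were in none of the 7, against 5.2, 3.97 and 1.63% of all. The windows of Klf7 and Klf12 lie 893 and 134883 bases from the start of the gene model used for the counts, those of the other 5 genes at most 133 bases.

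All 10 genes were expressed in uninjured neurons, over a wide range. Levels between genes were compared as RPKM, which scales the counts by exon length and library total. In control, Klf6 was the highest at 42.2 ± 3.98 RPKM (SD, n = 3), followed by Klf7 at 35.9 ± 0.398, Klf13 at 18.8 ± 2.10, Klf9 at 13.4 ± 2.11 and Klf16 at 10.4 ± 0.924 RPKM. Klf10 stood at 3.82 ± 0.354 RPKM, and the remaining genes near 1 RPKM or below, with Klf4 at 1.21 ± 0.301, Klf12 at 0.829 ± 0.229, Klf3 at 0.717 ± 0.149 and Klf5 at 0.235 ± 0.0379 RPKM. The growth-promoting pair Klf6 and Klf7 headed the order, and of the growth-restraining pair, Klf9 stood well above Klf4. The libraries of Klf9 and Klf16 overlapped, as did those of Klf4 and Klf12 and those of Klf12 and Klf3, and the other neighbours in the order did not. The order of the 10 means was the same at 16 HPI. With the longest transcript as the length, 7 of the 10 kept their place in the control order, while Klf3, at 1.54 RPKM, moved above Klf4 (1.22) and Klf12 (0.983), so the order of these 3 genes depends on the length used. Klf5 rested on only 15 to 52 counts a library.

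**Figure D1:**
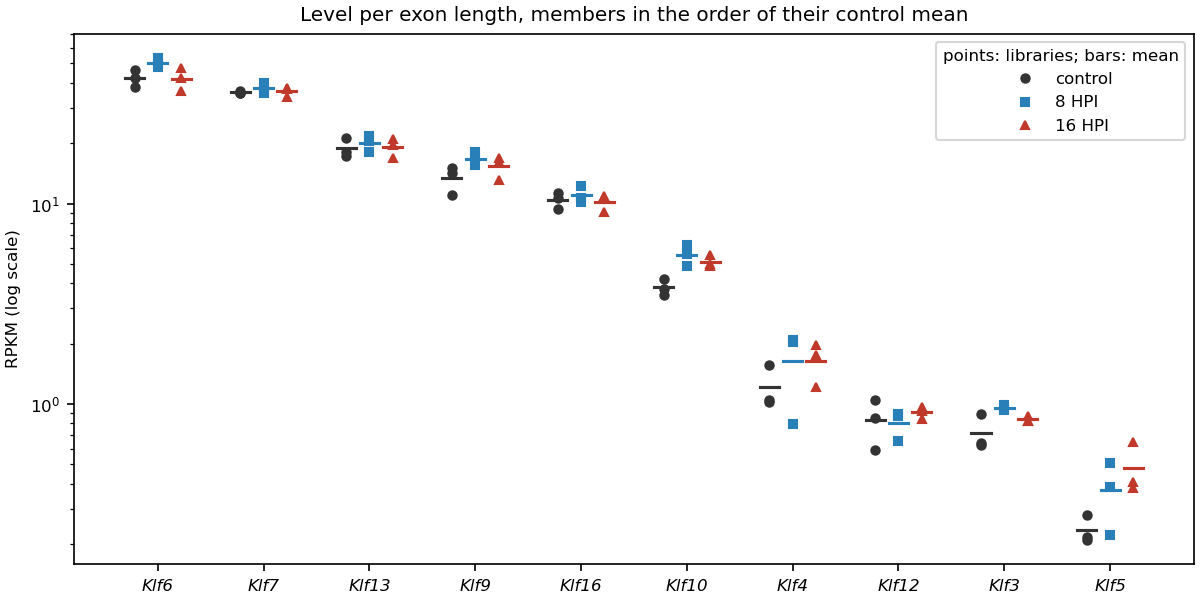
Each point is the RPKM of 1 library (log axis) for the 10 Klf genes in control, at 8 HPI and at 16 HPI, and each bar the mean of 3 libraries. The control means run from 42.2 RPKM for Klf6 to 0.235 RPKM for Klf5. The means at 8 and 16 HPI differ from those of control by little beside this range, with the widest step in Klf5, at 0.480 RPKM at 16 HPI.

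Each time point was compared with control in 1 edgeR quasi-likelihood model that held the 18 libraries, time point and replicate number, with Benjamini-Hochberg adjustment over 13771 genes. A gene passed with an adjusted p under 0.05. Levels of 1 gene are given below as CPM normalised by TMM, in the order of replicates 1, 2 and 3. The comparisons with control share the 3 control libraries, and the labels do not say whether replicates were separate litters or dissections, so the p-values measure the spread between these libraries. No Klf gene passed at 1 or 3 HPI, where 0.276 and 0.189% of all genes did. At an unadjusted p under 0.05, Klf4 and Klf10 were higher at 1 HPI, and Klf10 and Klf16 at 3 HPI. At 8 HPI, 3 of 10 passed, all higher (Klf6, Klf9 and Klf10), against 7.68% of all genes in either direction and 3.78% higher. At 16 HPI, 3 passed, all higher (Klf5, Klf9 and Klf10), against 22.2% in either direction and 10.7% higher. At 24 HPI none passed, against 15.0% of all genes. Klf7, Klf12 and Klf13 were lower there at an unadjusted p under 0.05, and Klf10 was higher. The share of all genes at an unadjusted p under 0.05 was not counted at any time, so such changes are not read as particular to these genes. By the DESeq2 Wald test no Klf gene passed at 1, 3 or 24 HPI either. That test gave an adjusted p to only 5761 genes at 1 HPI and 6829 at 3 HPI, and a Klf gene without one could not pass. The study's rule also asks for a change over 2-fold. No Klf gene met it against control, while of all genes 0.537% met it at 8 HPI, 1.49% at 16 HPI and 0.821% a day after injury. The 10 genes had a median log2 change of 0.30 at 8 HPI. It was 0.14 at 16 HPI and -0.072 at 24 HPI, and the median of all genes lay within 0.0022 of 0 at these times. Without the replicate term 1 of 10 passed at 8 HPI and 1 at 16 HPI, Klf10 both times.

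**Figure D2:**
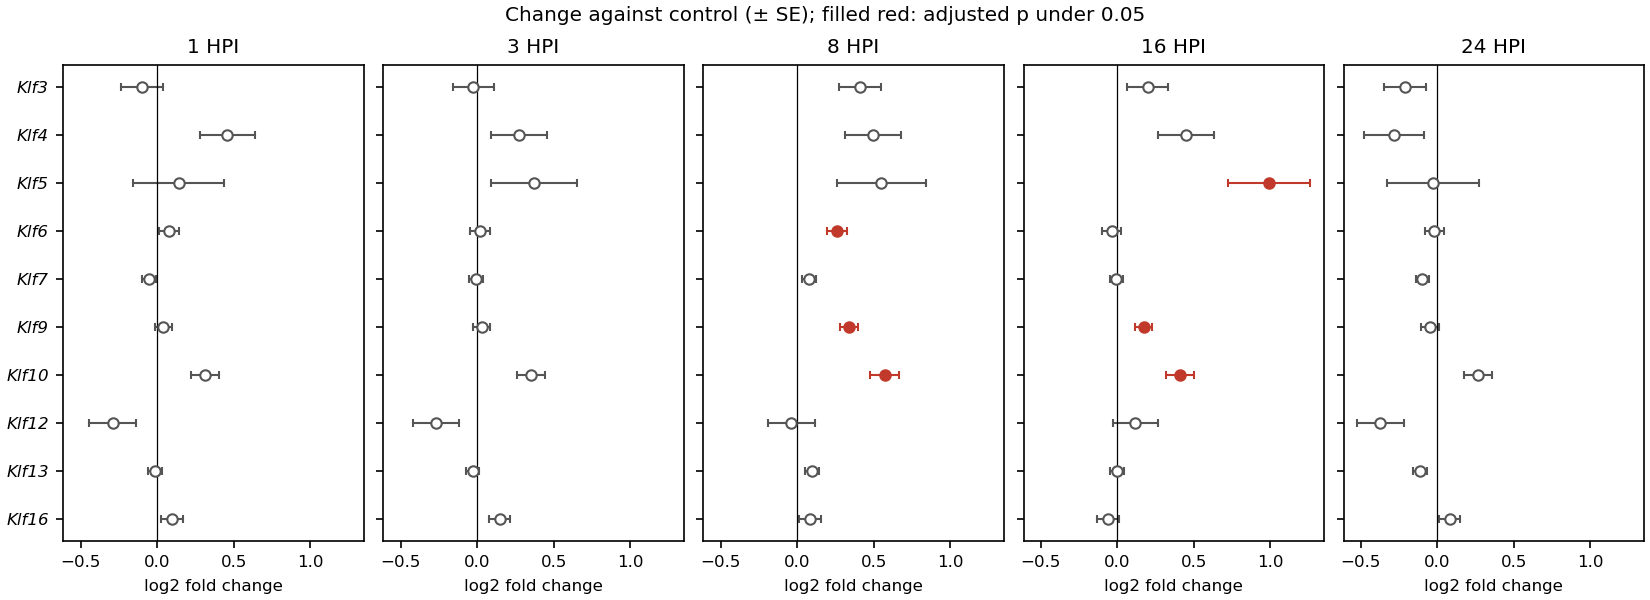
Log2 fold change against control (points, with the standard error as bars) of the 10 Klf genes at 5 time points, filled red where the adjusted p was under 0.05. The passing genes are Klf6, Klf9 and Klf10 at 8 HPI and Klf5, Klf9 and Klf10 at 16 HPI, all to the right of 0.

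Klf10 (GRCm38 chromosome 15, 38291463 to 38300706, minus strand), known as the TGF-beta inducible early gene, changed most among the genes that passed at 8 HPI. Control libraries held 16.3, 17.8 and 14.2 CPM. At 1 HPI the level was 20.7, 20.04 and 18.8 CPM, and at 3 HPI 19.3, 21.97 and 19.6 CPM. All 6 of these early libraries lay above all 3 controls, although neither time passed (log2 fold change 0.31, adjusted p = 0.168, and 0.35, adjusted p = 0.0969). The level stood at 24.7, 20.6 and 24.9 CPM at 8 HPI and at 22.7, 19.6 and 21.3 CPM at 16 HPI, again without overlap with control, and at 21.2, 18.8 and 17.8 CPM at 24 HPI, where the groups overlapped. Klf10 rose 1.49-fold at 8 HPI (log2 0.57, SE 0.094, adjusted p = 0.000707) and was 1.33-fold higher at 16 HPI (log2 0.41, SE 0.094, adjusted p = 0.00291). It passed at both times in each of the 14 alternative settings. Within replicate numbers 1, 2 and 3, its log2 CPM at 8 HPI differed from control by 0.59, 0.20 and 0.80, all in the same direction. Such differences within replicate numbers used TMM-normalised CPM with a small constant added before the log, which shrinks them in genes of low level. At 24 HPI the change of 0.27 did not pass (adjusted p = 0.0594), and it passed with upper-quartile factors, in the 2 groups alone and without control replicate 2.

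Klf9 (GRCm38 chromosome 19, 23141226 to 23168134, plus strand), which thyroid hormone and glucocorticoids induce and which restrains axon growth, had the smallest adjusted p over the time course of the 10 genes. Control libraries held 55.2, 69.2 and 69.9 CPM, 1 HPI 60.4, 70.5 and 68.5 CPM and 3 HPI 58.03, 68.9 and 71.1 CPM. At 8 HPI the level was 79.2, 81.2 and 83.6 CPM, so that all 3 libraries lay above every control and every library of 1 and 3 HPI. It was 69.2, 77.8 and 71.5 CPM at 16 HPI and 56.2, 67.4 and 63.96 CPM at 24 HPI, both overlapping with control. Klf9 rose 1.27-fold at 8 HPI against control (log2 0.34, SE 0.057, adjusted p = 0.000913). The change at 16 HPI was 1.13-fold (log2 0.17, SE 0.057, adjusted p = 0.0328), and passed in 7 of 14 alternative settings. Replicate 1 was the lowest of its group in all 6 groups, and within replicate numbers the changes at 8 HPI were 0.52, 0.23 and 0.26. Without the replicate term the adjusted p was 0.247 at 8 HPI and 0.421 at 16 HPI.

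Klf6 (GRCm38 chromosome 13, 5861482 to 5870394, plus strand), the most abundant of the 10 per length and a promoter of axon growth, passed against control at 8 HPI and at none of the other 4 times. Control libraries held 175, 188 and 196 CPM, and 8 HPI libraries 248, 218 and 202 CPM. The lowest library at 8 HPI lay above the highest control. Libraries of 1 HPI held 202, 197 and 190.0 CPM and those of 3 HPI 187, 198 and 180.5 CPM. Later, the 16 HPI libraries held 174, 178 and 191 CPM and the 24 HPI libraries 184, 178 and 189 CPM. These 4 times overlapped with control. Klf6 rose 1.20-fold at 8 HPI (log2 0.26, SE 0.065, adjusted p = 0.0166). The change was largest in replicate 1, with 0.51, 0.22 and 0.047 within the replicate numbers. Without 8 HPI replicate 1 the change was 0.16 (adjusted p = 0.141), without control replicate 1 it was 0.20 (adjusted p = 0.0945), and without the replicate term the adjusted p was 0.172. Klf6 did not pass in the compared groups alone either, and it passed in 10 of 14 alternative settings.

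Klf5 (GRCm38 chromosome 14, 99298691 to 99315036, plus strand), the lowest of the 10 per length, had the largest change of the 10 at 16 HPI. Control libraries held 1.17, 1.11 and 1.40 CPM and 16 HPI libraries 3.70, 2.04 and 1.84 CPM. The groups did not overlap, and 16 HPI replicate 1 was the highest of all 18 libraries. Before that, the libraries of 1 HPI held 1.65, 1.15 and 1.30 CPM, those of 3 HPI 1.78, 1.22 and 1.84 CPM and those of 8 HPI 2.12, 2.65 and 1.11 CPM. The 24 HPI libraries held 1.29, 1.12 and 1.19 CPM. Klf5 was 1.99-fold higher at 16 HPI (95% interval 1.35 to 2.93, log2 0.99, SE 0.27, adjusted p = 0.0104). The library of 16 HPI replicate 1 also held the largest share of the rRNA and structural RNA list. With that list and the mitochondrial genes left out, Klf5 passed at 16 HPI, and the part of the list was not tested otherwise. Without 16 HPI replicate 1 the change of Klf5 was 0.72 (adjusted p = 0.104). Without control replicate 1 it was 0.78 (adjusted p = 0.0918), and without the replicate term the adjusted p was 0.0814.

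**Figure D3:**
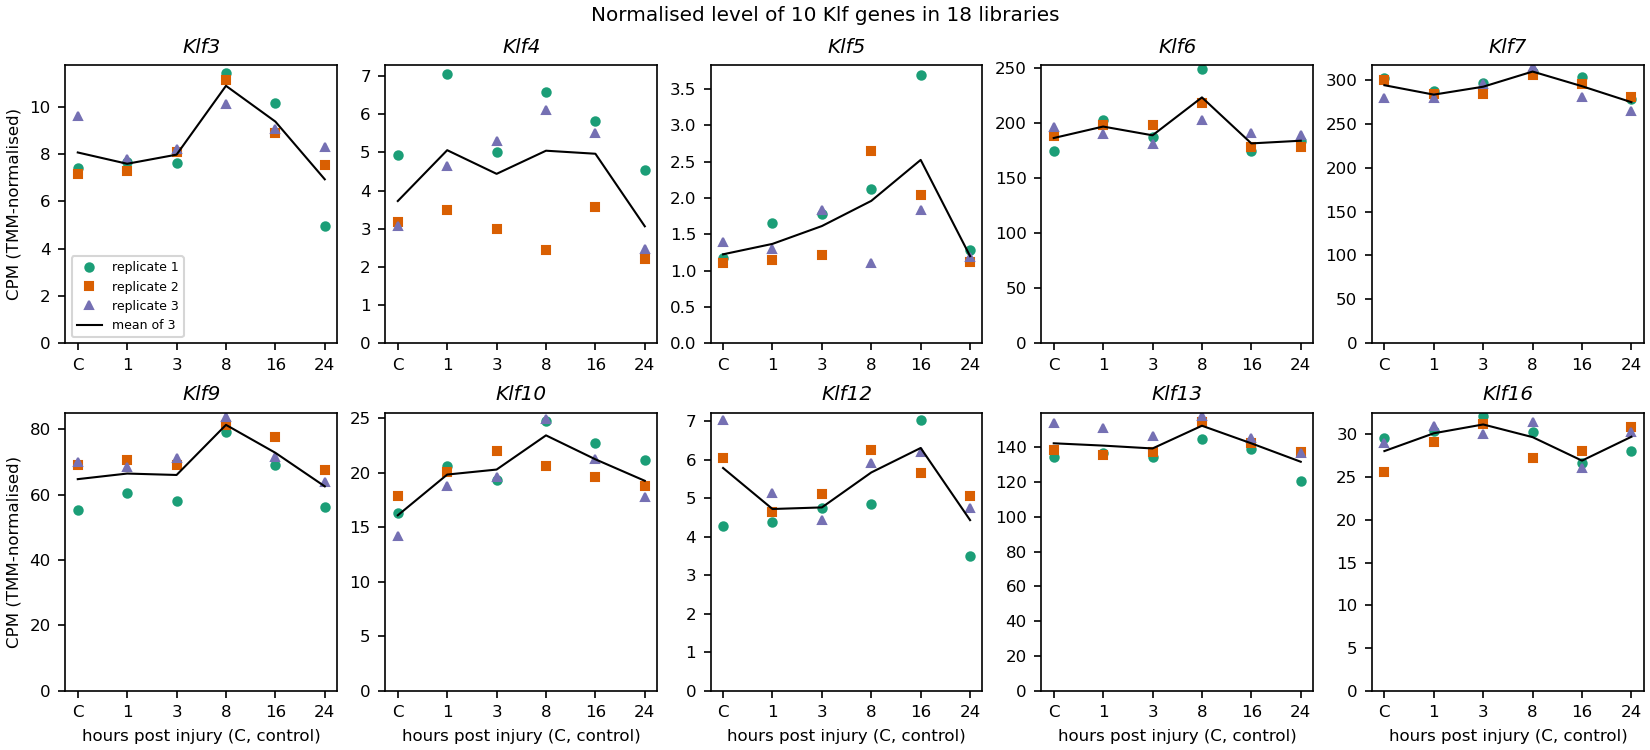
CPM (TMM-normalised, axes from 0) of each Klf gene in all 18 libraries, with control at C and hours post injury on the x axis, marked by replicate number, and with the mean of 3 as a line. The mean of Klf9 is highest at 8 HPI, that of Klf5 at 16 HPI, and that of Klf7 runs between 275 and 309 CPM.

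The other promoter of axon growth, Klf7, which is needed in developing sensory neurons, did not pass at any time. Its 18 libraries ranged from 265 to 314 CPM. At 8 HPI the fold was 1.05 (95% interval 0.988 to 1.12), with 8 HPI libraries all just above the controls, and at 16 HPI it was 0.996 (0.935 to 1.06). The lowest level was at 24 HPI, with a fold of 0.934 (0.877 to 0.996, adjusted p = 0.147).

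Klf4, a pluripotency factor that restrains axon growth, varied widely between replicates. Control libraries held 4.93, 3.17 and 3.08 CPM, 1 HPI 7.04, 3.49 and 4.65 CPM, 8 HPI 6.59, 2.44 and 6.11 CPM and 24 HPI 4.53, 2.20 and 2.47 CPM. Replicate 2 was the lowest in all groups except control, where replicate 3 was. Against control the log2 change was 0.46 at 1 HPI (SE 0.18, adjusted p = 0.297), 0.50 at 8 HPI (adjusted p = 0.114) and 0.45 at 16 HPI (adjusted p = 0.0879), so none passed. Klf4 is also made by endothelial and myeloid cells and by fibroblasts. The summed fibroblast markers ranged from 2.54 to 10.04 CPM in control and from 3.30 to 19.5 CPM at 8 HPI. The 19.5 CPM was that of 8 HPI replicate 2, where Klf4 was the lowest of its group. The part of such cells in the level of Klf4 was not tested.

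The remaining repressors did not pass against control at any time. Klf3 ranged from 4.96 to 11.4 CPM over the libraries and was highest at 8 HPI, with 11.4, 11.1 and 10.1 CPM against 7.42, 7.15 and 9.63 CPM in control, a log2 change of 0.41 (SE 0.14, adjusted p = 0.0688). These groups did not overlap, and the change did not pass. Klf3 overlaps exons of Gm20033 on the opposite strand, whose counts were 1.91 to 6.04% of those of Klf3. Klf12 ranged from 3.49 to 7.04 CPM and was lowest at 24 HPI (log2 -0.37, SE 0.15, adjusted p = 0.105). Klf13 ranged from 121 to 158 CPM and Klf16 from 25.6 to 32.2 CPM. At 8 HPI the fold was 1.07 for Klf13 (1.00 to 1.14) and 1.06 for Klf16 (0.957 to 1.18), the 95% interval in parentheses. Libraries did not overlap with control for 1 of the 10 genes at 1 HPI (Klf10), against 6.98% of all genes, and for 2 at 3 HPI (Klf10 and Klf16), against 7.67%. The libraries of 8 HPI did not overlap with control for 5 of the 10 genes (Klf3, Klf6, Klf7, Klf9 and Klf10), against 12.2% of all genes. At 16 HPI this held for 2 genes, Klf5 and Klf10, against 20.4% of all, and at 24 HPI for none, against 16.4%.

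Neighbouring time points were compared in the same model to ask when the levels moved. No Klf gene passed between 3 and 1 HPI or had an unadjusted p under 0.05, and 0% of all genes passed. Between 8 and 3 HPI, Klf9 passed (1 of 10, against 2.30% of all genes in either direction and 1.74% higher), with a rise of 0.31 on the log2 scale (SE 0.057, adjusted p = 0.00264). Klf6 missed the threshold there, at 0.24 (adjusted p = 0.0514). Between 16 and 8 HPI, Klf6 passed (1 of 10, against 15.2% in either direction and 7.86% lower), and it was lower at 16 HPI by a log2 change of -0.30 (SE 0.065, adjusted p = 0.00346). Klf9, at -0.17, missed it (adjusted p = 0.0524). The libraries of 8 HPI did not overlap with those of 3 HPI for 4 genes (Klf3, Klf6, Klf7 and Klf9), against 9.81% of all genes, nor with those of 16 HPI for 3 (Klf6, Klf7 and Klf9), against 17.7%. Without the replicate term neither step passed, with an adjusted p of 0.524 for Klf9 and 0.0516 for Klf6.

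Between 24 and 16 HPI, 4 of 10 genes passed, all lower at 24 HPI, against 9.82% of all genes in either direction and 6.22% lower. They were Klf4, Klf5, Klf9 and Klf12. Klf5 fell to 0.493 of its 16 HPI level (log2 -1.02, SE 0.27, adjusted p = 0.0161), and was the 1 gene of the 10 past 2-fold, against 0.508% of all. Its 24 HPI libraries were back within the range of the controls. Klf4 changed by -0.73 (SE 0.19, adjusted p = 0.0148), from 5.83, 3.57 and 5.51 CPM at 16 HPI. Its groups overlapped, and it was lower in each replicate number, by -0.33, -0.59 and -1.02. Klf12 went from 7.04, 5.66 and 6.21 CPM to 3.49, 5.05 and 4.75 CPM, without overlap (log2 -0.49, SE 0.15, adjusted p = 0.0436). Klf9 changed by -0.22 (SE 0.057, adjusted p = 0.0154), also without overlap. The libraries of 24 and 16 HPI did not overlap for 6 of the 10 genes (Klf3, Klf5, Klf9, Klf12, Klf13 and Klf16), against 14.8% of all genes. Without the replicate term none of the 4 passed (adjusted p = 0.173 for Klf5, 0.285 for Klf12, 0.483 for Klf9 and 0.588 for Klf4). Of the 4, Klf4 alone passed without 16 HPI replicate 1 and also without 24 HPI replicate 1, Klf5 alone without 24 HPI replicate 3, and Klf5 and Klf9 without 16 HPI replicate 3. Klf12 did not pass by the DESeq2 Wald test or in the compared groups alone, and Klf9 did not pass without 16 HPI replicate 2. Of 14 alternative settings, Klf4 and Klf5 passed in 11 each, Klf9 in 9 and Klf12 in 7.

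**Figure D4:**
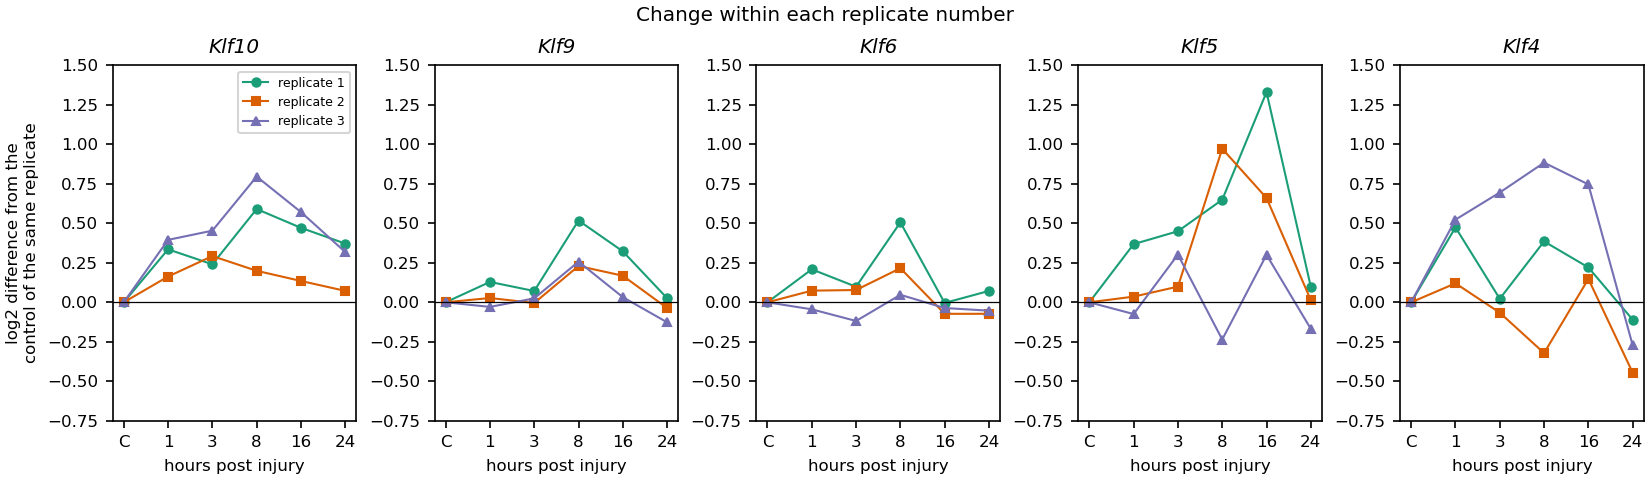
Difference in log2 CPM from the control library of the same replicate number, for Klf10, Klf9, Klf6, Klf5 and Klf4. CPM were TMM-normalised, with a small constant added before the log. The x axis gives hours post injury (C, control, set to 0). Klf10 lies above 0 in all 3 replicate numbers at all 5 times, while Klf4 at 8 HPI is above 0 in 2 and below it in 1.

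Over all 6 groups at once, 7 of 10 Klf genes passed, against 30.0% of all genes. The adjusted p was 0.000182 for Klf9, 0.00223 for Klf10, 0.00867 for Klf6, 0.0114 for Klf4, 0.0129 for Klf3, 0.0285 for Klf13 and 0.0291 for Klf5. Klf7 (0.0625), Klf12 (0.0710) and Klf16 (0.164) did not pass. For Klf3, Klf6, Klf7, Klf9, Klf10 and Klf13, the highest group mean was that of 8 HPI. Klf5 and Klf12 had theirs at 16 HPI, Klf4 at 1 HPI and Klf16 at 3 HPI. The test rested on the replicate term, and without it none of the 10 passed, with Klf10 nearest at an adjusted p of 0.0671. Without 8 HPI replicate 1, the count was 4 (Klf4, Klf5, Klf9 and Klf10).

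Across the 18 libraries, with the replicate number removed, the log2 CPM of the 45 pairs of Klf genes had a median Pearson r of 0.39, and 39 pairs were positive. These values describe libraries that share depth, composition and time points. The highest were 0.86 for Klf3 with Klf13 and 0.82 for Klf3 with Klf9, and the lowest -0.45 for Klf12 with Klf16. The genes most like Klf9 among all those tested were Nfil3 (r = 0.95), Elf1 (0.94) and Gadd45a (0.94). Klf10 was most like Rnf115 (0.89), Dck (0.88) and Eif1a (0.88). For Klf6 they were Slc10a6 (0.89), Zfp941 (0.84) and Slc30a1 (0.84), and for Klf5 Fam118a (0.88), Nedd9 (0.86) and Pkd2 (0.85). Klf4 had Asap2 (0.93), Rassf5 (0.85) and Pcnx4 (0.84), Klf3 had Zfand2b (0.90), Sesn2 (0.89) and Gm45838 (0.89), and Klf13 had Spata2 (0.91), Chac1 (0.89) and Cass4 (0.89).

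Of the 16 other genes of the KLF and SP family, 7 passed the filter on low counts. Values for these and the following lists are log2 fold changes against control, and their counts stand beside the 7.68, 22.2 and 15.0% of all genes that passed at 8, 16 and 24 HPI. Klf11, a close relative of Klf10 that TGF-beta also induces, was higher at 8 HPI by 0.40 (SE 0.10, adjusted p = 0.0214), and stood at -0.15 (SE 0.11, adjusted p = 0.371) at 16 HPI. Klf15, known from glucocorticoid responses, was lower at 24 HPI, by a log2 change of -0.39 (SE 0.11, adjusted p = 0.0197). No other gene of the list passed at any time, and Klf1, Klf2, Klf14, Klf17 and Sp5 to Sp9 held at most 9 counts in a library.

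All 15 cofactors of the family were tested. At 16 HPI, 3 of 15 passed, near the 22.2% of all genes, with 2 higher and 1 lower. These were Sap30, a subunit of the Sin3 complex, at 0.84 (SE 0.13, adjusted p = 5.37e-05), the ubiquitin ligase Wwp1, which targets Klf5, at 0.25 (SE 0.064, adjusted p = 0.00686), and the corepressor Ncor1 at -0.31 (SE 0.045, adjusted p = 3.54e-05). At 3 HPI, 1 was lower (Crebbp, -0.31), and at 8 HPI 3 were lower (Crebbp, Ep300 and Sin3a) and none higher. At 24 HPI Crebbp, Ep300 and Ncor1 were lower and Wwp1 was higher. Crebbp and Ep300 are coactivators that acetylate several Krüppel-like factors. The median of the list was 0.038 at 16 HPI.

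Among 15 tested partners and targets in axon growth, 6 were higher and 2 lower at 16 HPI, against 3 and 2 at 8 HPI (Atf3, Jun and Dusp14, and Plxna4 and L1cam). The largest were Atf3, a transcription factor of injured neurons, at 3.16 (SE 0.21, adjusted p = 4.11e-09), and Socs3, the inhibitor of Stat3 signalling, at 1.41 (SE 0.43, adjusted p = 0.0221). Lower were the semaphorin receptor Plxna4 at -0.47 (SE 0.068, adjusted p = 3.97e-05) and the adhesion molecule L1cam at -0.27 (SE 0.072, adjusted p = 0.0100). The list median was 0.055. Socs3 held a mean of only 0.697 CPM in control.

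Of 8 tested nuclear receptors that induce Klf9 and genes that respond to them, 1 was higher at 8 and at 16 HPI and none was lower. It was the clock gene Per1, at 0.92 (SE 0.092, adjusted p = 2.32e-06) at 8 HPI and 0.70 (SE 0.093, adjusted p = 1.52e-05) at 16 HPI. The list held 10 genes. Sgk1 and Zbtb16, with at most 23 and 19 counts in a library, fell below the filter and were not tested. The paper lists Zbtb16 among the transcription factors upregulated at 16 HPI. The glucocorticoid-responsive genes Tsc22d3 and Fkbp5 did not pass at 8 HPI, with 0.13 (SE 0.045, adjusted p = 0.0791) and 0.064 (SE 0.080, adjusted p = 0.701). Of 7 tested TGF-beta genes related to Klf10, 1 was higher at 8 HPI, the ubiquitin ligase Siah1a at 0.39 (SE 0.074, adjusted p = 0.00251), and 1 at 16 HPI, the inhibitory Smad7 at 1.07 (SE 0.25, adjusted p = 0.00309).

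The immediate early genes, which neurons switch on soon after stimulation, included Fos and Egr1. Of 12 tested, 3 passed at 1 HPI (Fos, Fosb and Arc) and 4 at 3 HPI (these and Fosl2), rising to 11 at 8 HPI and 12 at 16 HPI, with 8 left at 24 HPI, and every one of these was higher. Their median log2 change was 1.47 at 8 HPI and 1.44 at 16 HPI, with Fosb at 2.60 (SE 0.43, adjusted p = 0.000154) and Arc at 2.34 (SE 0.21, adjusted p = 1.31e-07) at 16 HPI. The study's 2-fold rule was met there by most of these 12 genes, Fosb and Arc among them, and by none of the 10 Klf genes against control.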

How the data were processed

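RNA was sequenced from 3 control cultures and 3 cultures at each of 5 times after axotomy. The deposited values are counts per gene. According to the methods, the authors trimmed reads with cutadapt and aligned them to mm10 with STAR. The paper names featureCounts, the submitters' processing notes HTSeq, and the files end with htseq-count's entries for reads on no gene, which were 25.2 to 33.2% of the total and left out. Whether strand was used in counting is not given in the sources used here. Symbols, positions and exon lengths came from GENCODE vM21, which matched 47224 of 47643 identifiers.

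Tests used the 13771 genes with over 1 CPM in 3 or more libraries, and TMM factors of 0.914 to 1.09, by the quasi-likelihood test of edgeR 4.0.16 in R 4.3.3. The replicate number was a term of the model. The authors instead corrected batches with edgeR, EDASeq and RUVSeq ahead of DESeq2, a step not repeated here. Same-numbered libraries deviated together from their group means (r = 0.484 to 0.765 over 45 pairs, and -0.577 to -0.0423 over the 90 pairs with different numbers). Deviations within a group sum to 0, so the negative range is tied to the positive one and is not separate evidence of pairing. A count of 3 corresponds to 0.130 to 0.316 CPM. On simulated counts for 16 HPI against control, 71 of 100 genes changed 1.5-fold and 100 of 100 changed 3-fold passed, of 13771 genes. Named are all 10 members, the list genes with the largest passing changes at 16 HPI, up to 2 in each direction, and the 3 genes most like each member that passed over the time course. For the other KLF and SP genes, those that passed are named. Klf11 at 16 HPI, list genes at other times, Egr1, Tsc22d3, Fkbp5, Sgk1 and Zbtb16 were named after their values were seen. The counts of partners and targets at 24 HPI are not reported here. The members and lists were chosen with earlier results of these data known. Alternatives changed the size factors, the filter, the test (DESeq2 1.42.0) or the replicate term, dropped rRNA, structural RNA and mitochondrial genes, fitted fewer groups, or dropped 1 library at a time. Figures were drawn with matplotlib 3.10.9 in Python 3.11.15.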

Additional observations from a re-analysis of the deposited data

Results flagged for a closer look

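The change of some Klf genes differed between neighbouring time points by the test of that difference. Klf9 differed by 0.31 on the log2 scale between 8 and 3 HPI, and by -0.22 between 24 and 16 HPI. Klf6 differed by -0.30 between 16 and 8 HPI. Between 24 and 16 HPI, Klf4 differed by -0.73, Klf5 by -1.02 and Klf12 by -0.49. All 6 were in the same direction in the 3 replicate numbers, and none passed without the replicate term. With 3 libraries a group, single libraries were not screened.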

How the results depend on the processing

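Without the replicate term the number of Klf genes that passed was 1 at 8 HPI, 1 at 16 HPI, 0 between 8 and 3 HPI, 0 between 16 and 8 HPI, 0 between 24 and 16 HPI and 0 over the time course. The replicate numbers pair the libraries, as their correlations show, and the block was kept. With DESeq2's size factors 2 passed between 16 and 8 HPI. Klf10 passed at 24 HPI with upper-quartile factors (count 1). Between 8 and 3 HPI, 2 passed (Klf6 and Klf9) with the DESeq2 Wald test, with a filter of over 1 CPM in all 18 libraries, and with the rRNA and structural RNA list and mitochondrial genes left out, and 3 in the compared groups alone, which also gave 1 (Klf10) at 1 HPI and 1 (Klf10) at 24 HPI. With each library left out in turn, the count was 0 throughout at 1 HPI, 0 to 1 at 3 HPI, 2 to 3 at 8 HPI, 1 to 3 at 16 HPI, 0 to 1 at 24 HPI, 1 to 2 between 8 and 3 HPI, 1 to 2 between 16 and 8 HPI, 1 to 4 between 24 and 16 HPI and 4 to 8 over the time course. The count of 1 arose at 3 HPI without 3 HPI replicate 1 (Klf10), at 16 HPI without control replicate 1 or 16 HPI replicate 1 (Klf10), and at 24 HPI without control replicate 1 (Klf12), control replicate 2 (Klf10) or 24 HPI replicate 2 (Klf13). Between 8 and 3 HPI the count of 2 arose without 3 HPI replicate 2 or 8 HPI replicate 3, and between 16 and 8 HPI without 8 HPI replicate 2. The cause of these shifts was not tested. Of 1034 values of single Klf genes under an alternative, 932 kept their side of the threshold and, for fold changes, their direction. Of the others, 55 no longer passed, 10 newly passed and 37 changed sign, all 37 in changes that had not passed. The values over the time course are adjusted p-values of the F test without a direction, so they could not change sign. At 16 HPI the change of Klf13 was -0.0013 with DESeq2's size factors, -0.0022 by its Wald test and -0.00050 without the replicate term, and that of Klf7 0.017 with upper-quartile factors and 0.0055 with a filter of 10 counts. With that filter Klf7 was at 0.0077 at 3 HPI. With upper-quartile factors Klf5 was at 0.0025 and Klf6 at 0.012 at 24 HPI. With libraries left out, sign changes fell in these ranges. At 1 HPI they were -0.17 to 0.034 for Klf3, -0.078 to 0.37 for Klf5, -0.010 to 0.082 for Klf9 and -0.035 to 0.015 for Klf13. At 3 HPI they were -0.10 to 0.11 for Klf3, -0.036 to 0.070 for Klf6, -0.035 to 0.017 for Klf7 and -0.019 to 0.070 for Klf9. The range of Klf12 was -0.19 to 0.13 at 8 HPI and -0.056 to 0.28 at 16 HPI, where those of Klf6, Klf7 and Klf13 were -0.091 to 0.015, -0.031 to 0.016 and -0.018 to 0.028. At 24 HPI they were -0.24 to 0.21 for Klf5 and -0.070 to 0.033 for Klf6. Depth limits Klf5 most, with 15 to 52 counts a library.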
